A study of Dichomitus squalens with 6 samples.

Results

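Growth of the white-rot fungus Dichomitus squalens on L-rhamnose was compared with its growth on cellobiose, in 4 of the 6 libraries of the series, chosen by their labelled carbon source. The L-rhamnose group and the cellobiose group held 2 libraries each, and the remaining 2 libraries, from D-xylose, entered the fit for its estimate of the spread and as a further level for the genes described. All libraries were made from total RNA of mycelium of CBS 464.89, labelled wild type, a single strain. Growth lasted 5 days at 28 °C, on plates with 1.5% agar of a low-nitrogen medium that also held asparagine and succinate, with 25 mM of the sugar. Cellobiose is a disaccharide and L-rhamnose a monosaccharide, so equal molarity did not give equal amounts of sugar carbon. No library from plates without an added sugar was analysed here. Whether the 2 replicates of a sugar were grown as separate cultures is not in the labels, so p-values below measure the spread between these libraries alone, and that spread may be technical. The series was set up to look for candidate regulators of plant biomass breakdown in this fungus.

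White-rot fungi are basidiomycetes that degrade all the main polymers of wood. L-Rhamnose is a deoxy sugar that alternates with galacturonic acid in the backbone of rhamnogalacturonan I, a part of pectin. In fungi whose pathway is known, such as the yeast Scheffersomyces stipitis and the mould Aspergillus niger, L-rhamnose is oxidised without phosphorylation through L-rhamnono-lactone and L-rhamnonate and ends in pyruvate and L-lactaldehyde. Cellobiose is the glucose disaccharide that cellobiohydrolases release from cellulose. It is split by beta-glucosidases or, in many wood-decay fungi, oxidised by the secreted enzyme cellobiose dehydrogenase. The deposited files give gene models, positions and protein numbers but no product names, so the genes of these pathways could not be singled out. Genes are therefore described by position on the deposited scaffolds, strand, exon number and coding length, and at most 2 per direction by number.

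The measured values were expected counts, which are estimated numbers of reads per gene, and FPKM, which scales that estimate for gene length and library size. FPKM did not follow counts over coding length exactly. Among the genes named below, short models had a somewhat higher FPKM for their counts and coding length than long ones. Expected counts summed to 7306517 and 7736271 in the L-rhamnose libraries and to 8004353 and 7898563 in the cellobiose libraries. Of 15295 gene models on 406 scaffolds, 14411 had a count in at least 1 of these 4 libraries. Filtering for low counts over all 6 libraries left 12667 genes, which were tested with edgeR's quasi-likelihood test. The replicates of a sugar were not copies of each other, since chi-square per degree of freedom between them was 15.36 on L-rhamnose and 24.98 on cellobiose. It was highest, at 54.5, between the xylose libraries, which entered the fit for the spread. The 10 most abundant genes held 6.396% and 6.775% of the counts on L-rhamnose, against 4.605% and 5.392% on cellobiose.

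The sugars differed in many genes. Of 12667 tested genes, 2792 (22.0%) had a Benjamini-Hochberg adjusted p under 0.05 in edgeR's test. Of these, 1397 (11.0%) were higher and 1395 (11.0%) were lower on L-rhamnose. An edgeR fit of the 4 libraries alone, without the xylose pair, called 3705 of 12525 tested genes, 1916 higher and 1789 lower. The part of the xylose spread in this difference was not tested. The even split did not hold in fits without 1 of the L-rhamnose libraries, where most calls were higher. Such fits leave 1 library on L-rhamnose and called far fewer genes. Whether the library left out or the smaller fit made this difference was not tested. The median log2 fold change over all tested genes was -0.003, which the TMM scaling sets near 0. In each of the 2792 genes, the lower library of one sugar lay above the higher library of the other. Such separation was more common than the calls, since it held for 4396 tested genes (34.7%) with L-rhamnose on top and for 4265 (33.7%) with cellobiose on top.

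**Figure D1:**
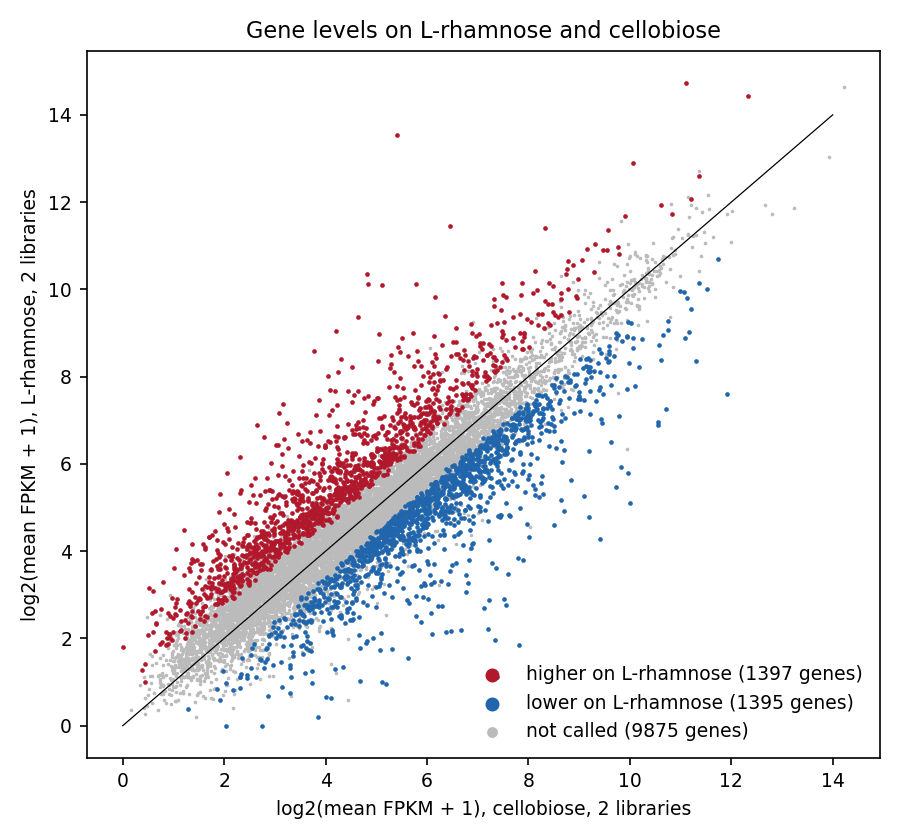
Levels of the 12667 tested genes, with the mean FPKM of the 2 L-rhamnose libraries on the vertical axis and of the 2 cellobiose libraries on the horizontal axis, both as log2(mean FPKM + 1). Points are genes, coloured by the edgeR call (1397 higher and 1395 lower on L-rhamnose), the line marks equal levels, and called genes of both directions run through almost the whole range of levels.

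Counted at or above a size of change, higher genes outnumbered lower genes at 2-fold and 4-fold, and were fewer from 8-fold on. Under 2-fold, 325 called genes were higher and 561 were lower. At least a 2-fold change was fitted for 1072 higher genes (8.46% of those tested) and 834 lower genes (6.58%). At least a 4-fold change was fitted for 272 higher and 206 lower genes. From 8-fold on the order turned, narrowly at first, with 74 higher and 78 lower genes. The numbers were 19 and 30 at 16-fold, and 4 and 11 at 32-fold. Whether this turn holds without single libraries was not tested. The median log2 fold change of the called genes was 1.31 for the higher and -1.11 for the lower ones, against a median standard error of 0.25.

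The 19 genes that were at least 16-fold higher on L-rhamnose (0.15% of those tested) had a median level of 339 FPKM on L-rhamnose and 15.5 FPKM on cellobiose. The 30 genes that were at least 16-fold lower (0.237%) had a median of 3.52 FPKM on L-rhamnose and 147 FPKM on cellobiose. The median of the strongly lower genes on L-rhamnose was thus below that of the strongly higher genes on cellobiose. This does not hold for every member, since a strongly lower model on scaffold 44 stood at 36.9 and 29.5 FPKM on L-rhamnose. On xylose the medians were 22.1 FPKM for the 19 genes and 45.3 FPKM for the 30 genes. Among the 30 lower genes 7 shared reads with a similar gene, and among the 19 higher genes 1 did. The strongly lower models were also shorter, with a median coding length of 537 bases against 1086 bases for the strongly higher ones and 1056 bases for all tested genes.

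Called genes made up a sizeable part of the RNA measured. The 1397 higher genes held 22.2% and 21.8% of the expected counts of both L-rhamnose libraries, against 7.48% and 6.33% for the cellobiose libraries. The 1395 lower genes held 9.36% and 8.9% on L-rhamnose, against 21.2% and 23.7% on cellobiose. The genes were chosen by this comparison, so these shares describe their weight and do not test it. In the xylose libraries the higher genes held 8.32% and 10.3% of the counts and the lower genes 22.9% and 20.4%.

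**Figure D2:**
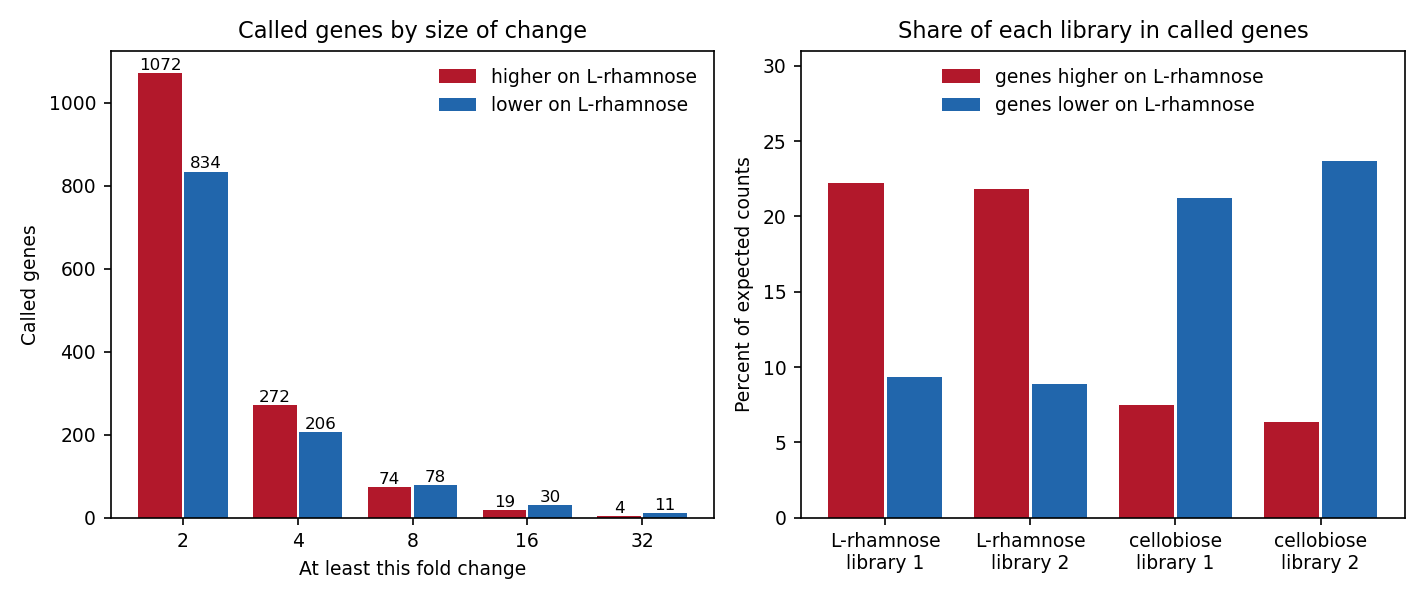
The left panel gives the number of called genes at or above each fold change, and the right panel gives the percent of each library's expected counts that fell in called genes, for genes higher and lower on L-rhamnose. Higher genes are more numerous at or above 2-fold and 4-fold, and fewer at or above 8-fold, 16-fold and 32-fold. They hold 22.2% and 21.8% of the counts in the L-rhamnose libraries against 7.48% and 6.33% in the cellobiose libraries.

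The most abundant genes of both sugars were largely shared. Of the 50 genes with the highest mean FPKM on L-rhamnose and the 50 on cellobiose, 33 were in both lists. The L-rhamnose list held 16 genes called higher and 0 called lower, and the cellobiose list held 5 called higher and 11 called lower, where 11.0% of all tested genes were called in each direction. Each list was chosen by the level on its own sugar, so a lean of its calls toward that sugar is built in. Of the 500 most abundant genes on each sugar, 368 were in both lists.

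Some of the most abundant called genes lost their call in fits without 1 library. The 4 called genes per direction with the highest mean FPKM on the higher sugar were looked up after the levels were seen. All of them kept their call in an edgeR fit of the 4 libraries alone and with DESeq2. A model of 3 exons and 468 coding bases on scaffold 315 (2855 to 4002, minus strand) stood at 28723 and 25686 FPKM on L-rhamnose, against 2205 and 2183 FPKM on cellobiose. It was therefore abundant on both sugars, and its groups were far apart. Its log2 fold change was 3.61 ± 0.47 (SE, edgeR adjusted p = 0.00558). In the edgeR fit of the 4 libraries alone the adjusted p was 0.000123, and with DESeq2 it was 1.18e-16. Without L-rhamnose replicate 1, L-rhamnose replicate 2 or cellobiose replicate 2 the edgeR adjusted p was 0.0556, 0.0516 and 0.059, so the call was lost in each of these fits. On xylose it stood at 237 and 610 FPKM, and the part of this spread in these fits was not tested.

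A model on scaffold 75 (128772 to 130159, plus strand), with 8 exons and 477 coding bases, stood at 20349 and 24082 FPKM on L-rhamnose, against 6495 and 3836 FPKM on cellobiose. It shared reads with a similar gene, so its level is uncertain. Its log2 fold change was 2.09 ± 0.60 (SE, edgeR adjusted p = 0.0474), and the call was lost without any 1 of the 4 libraries (edgeR adjusted p between 0.111 and 0.238). A model on scaffold 26 (277347 to 277982, minus strand), with 3 exons and 309 coding bases, stood at 9636 and 14262 FPKM on L-rhamnose, against 46.2 and 36.1 FPKM on cellobiose. It combined a very high level on L-rhamnose with a low one on cellobiose, and the log2 fold change was 8.16 ± 1.10 (SE, edgeR adjusted p = 0.00638). In the edgeR fit of the 4 libraries alone its adjusted p was 7.46e-05, and with DESeq2 1.79e-10. It was called without cellobiose replicate 1 (edgeR adjusted p = 0.0391) but not without the other 3 libraries in turn (0.0537 to 0.0633). A model on scaffold 88 (68926 to 70423, minus strand), with 9 exons, stood at 7412 and 7738 FPKM on L-rhamnose, against 1234 and 900.1 FPKM on cellobiose. Its L-rhamnose replicates lay close together, its cellobiose replicates less so, and the log2 fold change was 2.81 ± 0.42 (SE, edgeR adjusted p = 0.00793). In the edgeR fit of the 4 libraries alone its adjusted p was 0.000339, and with DESeq2 3.13e-11. Its call was lost without either L-rhamnose library (edgeR adjusted p = 0.0657 and 0.0621) and without cellobiose replicate 2 (0.072).

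Among lower genes, the highest level on cellobiose belonged to a model of 2 exons and 156 coding bases on scaffold 196 (39005 to 39322, plus strand). It stood at 243 and 145 FPKM on L-rhamnose, against 3247 and 4434 FPKM on cellobiose, and it shared reads with a similar gene. Its log2 fold change was -4.33 ± 0.49 (SE, edgeR adjusted p = 0.00387). Without L-rhamnose replicate 1 or 2 the edgeR adjusted p was 0.0527 and 0.0574. Calls of the next 3 were lost without each of the 4 libraries in turn. A model of 3 exons and 348 coding bases on scaffold 21 (269421 to 270086, plus strand) stood at 2169 and 1154 FPKM on L-rhamnose, against 3075 and 3748 FPKM on cellobiose (log2 fold change -1.07 ± 0.31, SE, edgeR adjusted p = 0.0465). On xylose it was nearly silent, at 8.75 and 10.4 FPKM. A model of 4 exons on scaffold 65 (83913 to 84870, plus strand) stood at 804 and 1246 FPKM on L-rhamnose, against 3124 and 2736 FPKM on cellobiose (log2 fold change -1.53 ± 0.34, SE, edgeR adjusted p = 0.0228). A model of 3 exons on scaffold 1 (1610977 to 1613111, plus strand) stood at 949 and 1297 FPKM on L-rhamnose, against 2590.3 and 2668 FPKM on cellobiose (log2 fold change -1.25 ± 0.31, SE, edgeR adjusted p = 0.0301).

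Because many calls were lost in fits without 1 library, a narrower set was formed. A gene was taken as stable when it was called in the same direction in the edgeR fit of all 6 libraries, in an edgeR fit of the 4 libraries alone, with DESeq2, and in edgeR fits without each of the 4 libraries in turn, when its groups did not overlap, and when its counts were whole numbers in all 6 libraries, so that it shared no reads. This left 76 higher genes (0.6% of those tested) and 30 lower genes (0.237%). The steps that removed most genes were the fits without an L-rhamnose library. Of the 1397 higher genes, 111 and 145 were also called without L-rhamnose replicates 1 and 2, 505 and 163 without cellobiose replicates 1 and 2, 1396 in the fit of the 4 libraries and 1266 with DESeq2. Of the 1395 lower genes, the numbers were 38 and 51 without the L-rhamnose replicates, 556 and 157 without the cellobiose replicates, 1386 in the fit of the 4 libraries and 1370 with DESeq2. A fit with 1 library of a sugar takes its spread from the other groups.

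The stable genes were spread over the genome, with 76 higher genes on 46 scaffolds and 30 lower genes on 26. Their median log2 fold change was 2.52 for the higher ones, with sizes from 1.63 to 5.56, and -2.86 for the lower ones, with sizes from 1.87 to 6.43. The higher genes had a median level of 100 FPKM on L-rhamnose and 16 FPKM on cellobiose, and 19 FPKM on xylose. The lower genes had a median of 22.5 FPKM on L-rhamnose and 159 FPKM on cellobiose, and 42 FPKM on xylose. At least 100 FPKM on the higher sugar was reached by 38 of 76 higher and 20 of 30 lower genes. The median over all tested genes was 24.5 FPKM on L-rhamnose and 24.2 FPKM on cellobiose. The medians of the stable sets lay above it on the higher sugar and below it on the other, only narrowly so for lower genes. Some stable genes lay above it on both sugars, such as a higher gene with a mean of 319 FPKM on cellobiose. A lower gene with a mean of 129 FPKM on L-rhamnose did so too.

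The 10 stable higher genes with the highest level on L-rhamnose stood between 401 and 3261 FPKM there. The first was gene_12541 (protein number 907786), a model of 7 exons and 1077 coding bases on scaffold 69 (150346 to 151770, minus strand). It stood at 2452 and 3144 FPKM in the L-rhamnose libraries, against 101 and 72.0 FPKM in the cellobiose libraries. Both L-rhamnose libraries were far above both cellobiose libraries. The log2 fold change was 5.00 ± 0.36 (SE, edgeR adjusted p = 0.00135), and it stayed between 4.77 and 5.25 when any 1 library was left out. On xylose the gene stood in between, at 287 and 448 FPKM, and L-rhamnose was higher than xylose by 2.79 ± 0.33 on the log2 scale (SE, edgeR adjusted p = 0.00261).

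The second was gene_17619 (protein number 940691), a short model of 6 exons and 360 coding bases on scaffold 177 (12031 to 12928, plus strand). It stood at 3261 and 2135 FPKM in the L-rhamnose libraries, against 355 and 283 FPKM in the cellobiose libraries. The L-rhamnose replicates differed more from each other than those of gene_12541, but the groups remained well apart. The log2 fold change was 3.05 ± 0.33 (SE, edgeR adjusted p = 0.0035), with 2.73 to 3.29 when a library was left out. On xylose it stood at 453 and 767 FPKM, a log2 difference, L-rhamnose minus xylose, of 2.0 ± 0.32 (SE, edgeR adjusted p = 0.0064).

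The 3 genes with the strongest changes among the next 8 come first. A model of 21 exons and 3021 coding bases on scaffold 80 (86874 to 91338, plus strand) stood at 1527 and 1085 FPKM on L-rhamnose, against 36.9 and 17.6 FPKM on cellobiose. A model of 11 exons and 1113 coding bases on scaffold 52 (176885 to 179203, minus strand) stood at 1363 and 879 FPKM on L-rhamnose, against 36.8 and 18.7 FPKM on cellobiose. A model of 15 exons and 1338 coding bases on scaffold 1 (1726579 to 1728862, plus strand) stood at 643 and 411 FPKM on L-rhamnose, against 17.5 and 17.3 FPKM on cellobiose. In each of the 3 genes the L-rhamnose replicates spread by less than the distance between the sugars, and replicate 1 was the higher one. Their log2 fold changes were 5.56 ± 0.65, 5.31 ± 0.48 and 4.90 ± 0.35 (SE), with edgeR adjusted p of 0.00429, 0.00213 and 0.00135.

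The gene on scaffold 52 had the greatest distance from xylose among the 10. It stood at 3.09 and 6.16 FPKM on xylose, and its L-rhamnose level was higher than that on xylose by 7.77 ± 0.55 on the log2 scale (SE, edgeR adjusted p = 0.00119). It was thus lower on xylose than on cellobiose in every library. A model of 6 exons and 1254 coding bases on scaffold 12 (239115 to 240867, minus strand) stood at 682 and 632 FPKM on L-rhamnose, against 29.3 and 18.5 FPKM on cellobiose. Its L-rhamnose replicates were close, and the log2 fold change was 4.76 ± 0.28 (SE, edgeR adjusted p = 0.001). A model of 16 exons and 1632 coding bases on scaffold 96 (91856 to 94643, plus strand) stood at 601 and 401 FPKM on L-rhamnose, against 34.9 and 29.6 FPKM on cellobiose, the log2 fold change being 3.93 ± 0.38 (SE, edgeR adjusted p = 0.00246).

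The remaining 3 of the 10 were abundant on both sugars and changed less. A model of 10 exons at 36800 to 39630 on scaffold 68 stood at 783 and 697 FPKM on L-rhamnose, against 184 and 167 FPKM on cellobiose (log2 fold change 2.05 ± 0.21, SE). A single-exon model of 270 coding bases at 72367 to 72872 on scaffold 118 stood at 709 and 508 FPKM on L-rhamnose, against 179 and 184 FPKM on cellobiose (log2 fold change 1.72 ± 0.20, SE). A model of 5 exons at 174886 to 177399 on scaffold 3 stood at 519 and 511 FPKM on L-rhamnose, against 126 and 110 FPKM on cellobiose (log2 fold change 2.11 ± 0.23, SE). All 3 passed with edgeR adjusted p of 0.00277, 0.00426 and 0.00326. The model on scaffold 3 overlaps a neighbouring model, and the use of strand in counting is not known, so reads of the neighbour could be counted in it. It stood at 327 and 439 FPKM on xylose, close to its L-rhamnose level, with a log2 difference of 0.29 ± 0.22 (SE, edgeR adjusted p = 0.337).

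**Figure D3:**
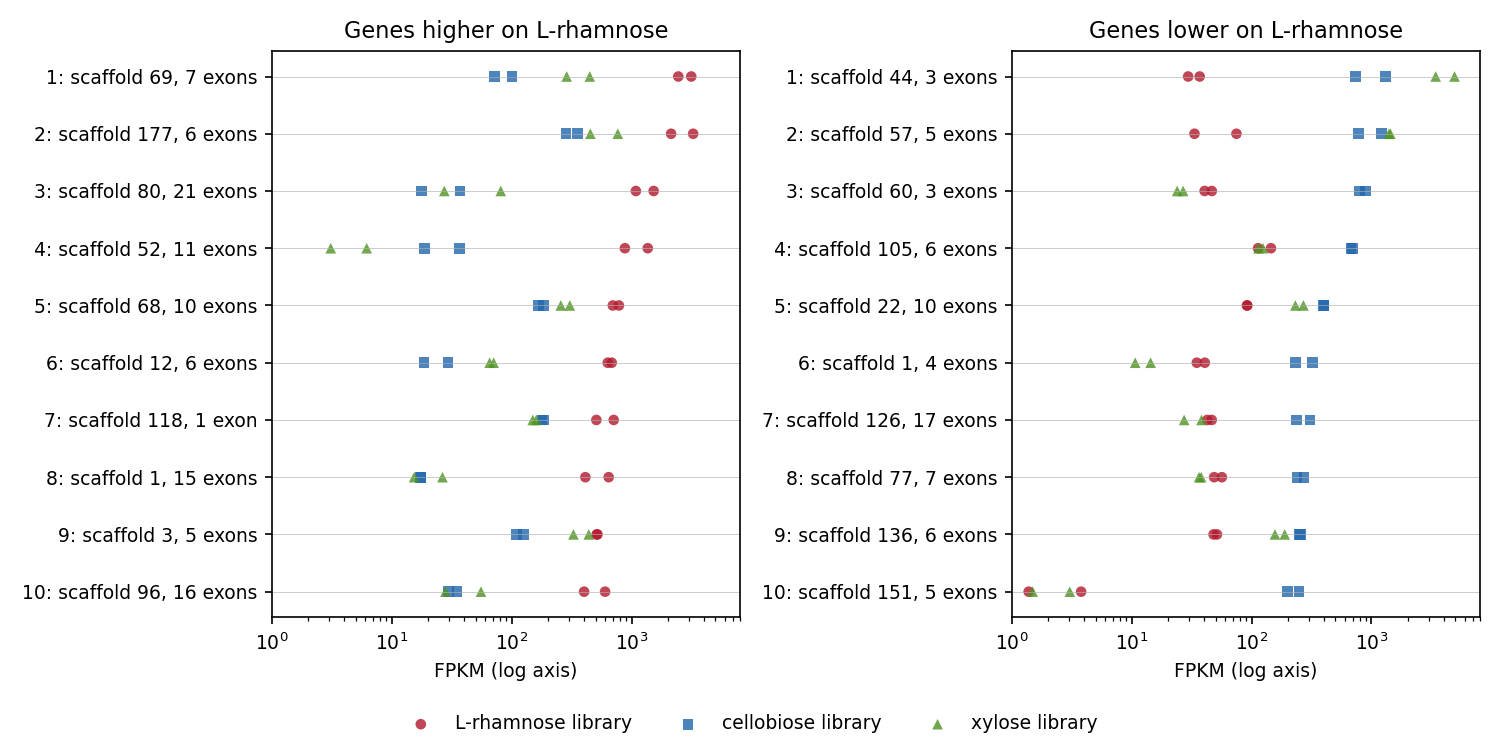
FPKM on a log axis of the 10 stable genes per direction with the highest level on the higher sugar, with 1 point per library (circles L-rhamnose, squares cellobiose, triangles xylose). In the left panel all L-rhamnose points lie to the right of the cellobiose points, in the right panel all lie to the left, and the xylose points of the lower genes lie on either side of the L-rhamnose points.

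The 10 stable lower genes with the highest level on cellobiose stood between 199 and 1306 FPKM there. The first was gene_11302 (protein number 927617), a model of 3 exons and 528 coding bases on scaffold 44 (99782 to 100600, minus strand). It stood at 36.9 and 29.5 FPKM in the L-rhamnose libraries, against 737 and 1306 FPKM in the cellobiose libraries. The cellobiose replicates differed, but the lower of them was still well above both L-rhamnose libraries. The log2 fold change was -4.97 ± 0.40 (SE, edgeR adjusted p = 0.00151), with -5.33 to -4.50 when a library was left out. The gene was even more abundant on xylose, at 4930.3 and 3431 FPKM, with a log2 difference, L-rhamnose minus xylose, of -7.12 ± 0.44 (SE, edgeR adjusted p = 0.000934).

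The second was gene_10407 (protein number 929902), a model of 5 exons and 546 coding bases on scaffold 57 (105915 to 106950, minus strand). It stood at 74.7 and 33.4 FPKM in the L-rhamnose libraries, against 783 and 1206 FPKM in the cellobiose libraries. The replicates of both sugars spread widely, without overlap between the sugars. The log2 fold change was -4.23 ± 0.42 (SE, edgeR adjusted p = 0.00277), with -4.91 to -3.79 when a library was left out. On xylose it stood at 1437 and 1401 FPKM, with a log2 difference, L-rhamnose minus xylose, of -4.87 ± 0.44 (SE, edgeR adjusted p = 0.00145).

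In contrast to these genes, several of the next 8 lower genes were also low on xylose. A model of 3 exons and 279 coding bases on scaffold 60 (161305 to 162393, plus strand) stood at 40.6 and 46.5 FPKM on L-rhamnose, against 794 and 886 FPKM on cellobiose. Its replicates lay close together, and the log2 fold change was -4.29 ± 0.20 (SE, edgeR adjusted p = 0.001). On xylose it stood at 23.9 and 26.8 FPKM, below its L-rhamnose level by a log2 difference of 0.64 ± 0.20 (SE, edgeR adjusted p = 0.0461). A model of 4 exons and 375 coding bases on scaffold 1 (1991714 to 1992382, minus strand) stood at 34.9 and 40.7 FPKM on L-rhamnose, against 323 and 232 FPKM on cellobiose (log2 fold change -2.89 ± 0.26, SE, edgeR adjusted p = 0.00213). It was lower still on xylose, at 14.4 and 10.7 FPKM, and L-rhamnose was higher than xylose by 1.45 ± 0.28 on the log2 scale (SE, edgeR adjusted p = 0.0106).

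For 4 of the lower genes the L-rhamnose and xylose levels did not differ at the threshold. A model of 5 exons and 990 coding bases on scaffold 151 (25118 to 26622, plus strand) was nearly silent on both, at 1.38 and 3.78 FPKM on L-rhamnose and 1.49 and 3.04 FPKM on xylose. It stood at 199 and 248 FPKM on cellobiose, and its log2 fold change between L-rhamnose and cellobiose was -6.43 ± 0.47 (SE, edgeR adjusted p = 0.00135). The other 3 kept a moderate level on L-rhamnose and xylose. A model of 6 exons at 76347 to 77765 on scaffold 105 stood at 145 and 113 FPKM on L-rhamnose, against 674 and 696 FPKM on cellobiose (log2 fold change -2.43 ± 0.19, SE). A model of 17 exons at 30207 to 33189 on scaffold 126 stood at 46.5 and 42.7 FPKM on L-rhamnose, against 236 and 306 FPKM on cellobiose (log2 fold change -2.63 ± 0.24, SE). A model of 7 exons at 115849 to 117518 on scaffold 77 stood at 56.4 and 48.7 FPKM on L-rhamnose, against 239 and 274 FPKM on cellobiose (log2 fold change -2.31 ± 0.18, SE). These 3 genes passed with edgeR adjusted p of 0.00151, 0.00226 and 0.00139. Their log2 differences between L-rhamnose and xylose were -0.03 ± 0.18, 0.30 ± 0.23 and 0.35 ± 0.17 (SE), with edgeR adjusted p of 0.913, 0.355 and 0.151.

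The last 2 of the 10 had xylose levels between the other sugars. A model of 10 exons and 1563 coding bases at 13727 to 15815 on scaffold 22 stood at 91.6 and 91.7 FPKM on L-rhamnose, against 398 and 401 FPKM on cellobiose (log2 fold change -2.14 ± 0.19, SE, edgeR adjusted p = 0.00213). A model of 6 exons and 645 coding bases at 15355 to 16973 on scaffold 136 stood at 51.3 and 48.1 FPKM on L-rhamnose, against 255 and 250 FPKM on cellobiose (log2 fold change -2.36 ± 0.18, SE, edgeR adjusted p = 0.00136). Their replicates were nearly equal within each sugar. On xylose they stood at 271 and 232 FPKM, and at 189 and 157 FPKM.

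Set against xylose, 9 of the 10 higher genes were also higher on L-rhamnose, where 15.9% of all tested genes were called higher. Of the 10 lower genes, 4 were also lower on L-rhamnose than on xylose, where 15.6% of all tested genes were called lower, 2 were higher and 4 were not called. Of all genes called against cellobiose, 998 of 1397 higher and 960 of 1395 lower genes were called the same way against xylose. Both comparisons use the same L-rhamnose libraries, so the comparison with xylose is no separate support for the comparison with cellobiose.

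Several scaffolds held more than 2 stable genes. Scaffolds 1 and 52 held 6 stable higher genes each, where 0.6% of all tested genes were stable and higher. On scaffold 1 they were among 935 tested genes, of which 81 were called higher, so neither share lay far above that of all tested genes. On scaffold 52 they lay between 77127 and 179203, among 73 tested genes, of which 19 were called higher, against 11.0% of all tested genes. On scaffold 6, with 222 tested genes, 3 stable genes had nearly the same fold change at very different levels. The first, of 10 exons at 315569 to 318389, stood at 59.3 and 49.7 FPKM on L-rhamnose, against 3.49 and 2.83 FPKM on cellobiose. The next, of 9 exons at 364110 to 366055, stood at 121 and 72.5 FPKM on L-rhamnose, against 6.01 and 5.74 FPKM on cellobiose. The last, also of 9 exons, at 488018 to 489773, stood at 381 and 296 FPKM on L-rhamnose, against 17.1 and 20.6 FPKM on cellobiose. Their log2 fold changes were 4.08 ± 0.35, 4.01 ± 0.29 and 4.14 ± 0.22 (SE), with edgeR adjusted p of 0.00208, 0.00135 and 0.001. The 3 models are not adjacent.

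Scaffold 80, with 43 tested genes, held 3 stable higher genes, the model of 21 exons described above and 2 others upstream of it. A model of 17 exons and 3114 coding bases at 57935 to 62455 stood at 45.7 and 37.2 FPKM on L-rhamnose, against 4.69 and 3.36 FPKM on cellobiose (log2 fold change 3.34 ± 0.25, SE, edgeR adjusted p = 0.00135). A model of 8 exons at 38269 to 39501 stood at 105 and 92.6 FPKM on L-rhamnose, against 14.1 and 20.2 FPKM on cellobiose (log2 fold change 2.50 ± 0.23, SE, edgeR adjusted p = 0.00222). On scaffold 2, a model of 21 exons and 2976 coding bases at 721363 to 725624 stood at 185 and 166 FPKM on L-rhamnose, against 16.4 and 10.8 FPKM on cellobiose (log2 fold change 3.67 ± 0.27, SE, edgeR adjusted p = 0.00135). Over all 76 stable higher genes the median exon number was 7.5 and the median coding length 1201.5 bases, against 5 exons and 1056 bases over all tested genes.

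Of the lower genes, only scaffold 91, with 46 tested genes, held as many as 3 stable members. A model of 5 exons at 26485 to 28173 stood at 2.05 and 2.62 FPKM on L-rhamnose, against 29.6 and 35.5 FPKM on cellobiose (log2 fold change -3.81 ± 0.26, SE, edgeR adjusted p = 0.00135). A model of 11 exons at 35074 to 37216 stood at 8.33 and 7.97 FPKM on L-rhamnose, against 54.9 and 61.6 FPKM on cellobiose (log2 fold change -2.86 ± 0.19, SE, edgeR adjusted p = 0.00135). A model of 23 exons at 18604 to 21596 stood at 8.96 and 6.82 FPKM on L-rhamnose, against 46.1 and 44.3 FPKM on cellobiose (log2 fold change -2.54 ± 0.23, SE, edgeR adjusted p = 0.00216). All 3 were low on xylose too, between 2.47 and 8.93 FPKM. The models at 18604 and 26485 overlap neighbouring models, so reads of those neighbours could be counted in them.

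Called genes were also followed along the scaffolds. Of 11043 pairs of neighbouring tested genes, 224 (2.03%) were both higher, 227 (2.06%) both lower, and 201 (1.82%) called in opposite directions. Pairs on the same strand were both higher in 2.34% of cases and both lower in 2.17%. Divergent pairs, which start away from each other, gave 1.63% and 1.84%, and convergent pairs gave 1.85% and 2.06%. Neighbours in which at least 1 gene shares reads made up 12.3% of all pairs.

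Consecutive models, 3 or more, that were called one way and changed at least 2-fold formed 15 runs of higher and 13 runs of lower genes. The runs held 52 genes (3.72% of those called higher) and 45 genes (3.23% of those called lower). Most were short, with 11 of the 15 and 8 of the 13 made of 3 genes. The number of runs changed in fits without 1 library. Without L-rhamnose replicates 1 and 2, 0 and 1 runs of higher genes and no run of lower genes remained at the threshold, and without cellobiose replicate 2 there were 2 runs of higher genes and 0 of lower genes. Runs are therefore described by their values, and single members may not hold without a library.

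Among the runs of higher genes, the greatest median change belonged to the run at 170449 to 179203 on scaffold 52, with 4 models on the minus strand and a median log2 fold change of 3.63. It ends in the model of 11 exons at 1363 and 879 FPKM on L-rhamnose described above. The model next to it, of 9 exons at 174789 to 176381, stood at 82.0 and 46.7 FPKM on L-rhamnose, against 8.84 and 4.29 FPKM on cellobiose. The model at 172927 to 174419, of 4 exons, stood at 22.5 and 20.5 FPKM on L-rhamnose, against 1.74 and 0.88 FPKM on cellobiose. The outermost model, also of 4 exons, at 170449 to 171876, stood at 34.0 and 33.4 FPKM on L-rhamnose, against 5.15 and 4.10 FPKM on cellobiose. All 4 were thus higher on L-rhamnose in both libraries, at levels that differed widely between neighbours. Their log2 fold changes were 2.84 ± 0.25, 4.0 ± 0.44, 3.26 ± 0.59 and 5.31 ± 0.48 (SE) in the order of their positions, with edgeR adjusted p between 0.00205 and 0.0132. Of the 4, 3 were stable, and 3 were still called without L-rhamnose replicate 1 and 3 without replicate 2.

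Scaffold 52 held 2 further runs. In the run at 100916 to 107463, a model of 21 exons and 972 coding bases stood at 133 and 103 FPKM on L-rhamnose, against 5.91 and 4.55 FPKM on cellobiose. The model next to it, of 7 exons, stood at 454 and 395 FPKM on L-rhamnose, against 97.9 and 57.1 FPKM on cellobiose. The third, of 2 exons, stood at 105 and 64.7 FPKM on L-rhamnose, against 9.69 and 4.91 FPKM on cellobiose. Their log2 fold changes were 4.47 ± 0.43, 2.43 ± 0.28 and 3.51 ± 0.38 (SE), with edgeR adjusted p of 0.00246, 0.00407 and 0.00343, and 2 of the 3 were stable. The run at 190493 to 196351 was weaker, with 3 models at 14.5 to 30.2 FPKM on L-rhamnose and 2.31 to 9.84 FPKM on cellobiose and edgeR adjusted p up to 0.0264.

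The longest run of higher genes had 6 models at 709635 to 725642 on scaffold 4, and its members differed widely in level. The model at its start, of 9 exons, stood at 850.4 and 718 FPKM on L-rhamnose, against 186 and 131 FPKM on cellobiose (log2 fold change 2.28 ± 0.49, SE, edgeR adjusted p = 0.0212). The model at its end, of 10 exons, stood at 345 and 360.4 FPKM on L-rhamnose, against 61.4 and 34.7 FPKM on cellobiose (log2 fold change 2.86 ± 0.58, SE, edgeR adjusted p = 0.0179), and it shares reads. The model of 4 exons at 716965 to 718821 stood at only 5.88 and 3.63 FPKM on L-rhamnose, against 2.02 and 2.12 FPKM on cellobiose (log2 fold change 1.17 ± 0.32, SE, edgeR adjusted p = 0.04). The other 3 models lay between these levels or close to the lowest. They stood at 41.8 and 34.2 FPKM, 125 and 104 FPKM, and 8.72 and 6.14 FPKM on L-rhamnose, against 13.2 and 7.07 FPKM, 50.9 and 45.9 FPKM, and 3.58 and 3.30 FPKM on cellobiose. No member of this run was called without either L-rhamnose library.

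The run of 5 models at 881493 to 894581 on scaffold 1 lay wholly on the plus strand. Its most abundant member, of 7 exons at 885367 to 886755, stood at 143 and 105 FPKM on L-rhamnose, against 26.1 and 21.6 FPKM on cellobiose (log2 fold change 2.35 ± 0.22, SE, edgeR adjusted p = 0.00222), and it alone of the 5 was stable. The model of 17 exons at 891829 to 894581 stood at 92.7 and 89.6 FPKM on L-rhamnose, against 12.3 and 8.85 FPKM on cellobiose (log2 fold change 3.09 ± 0.50, SE, edgeR adjusted p = 0.00956). It overlaps the model before it. The other 3 models stood at 28.8 and 24.2 FPKM, 32.9 and 28.7 FPKM, and 47.5 and 35.7 FPKM on L-rhamnose, against 6.55 and 6.33 FPKM, 13.8 and 9.03 FPKM, and 9.38 and 3.46 FPKM on cellobiose. A run of 4 small models at 393070 to 397717 on scaffold 12, with 177 to 747 coding bases, stood between 6.64 and 87.6 FPKM on L-rhamnose and between 3.26 and 23.0 FPKM on cellobiose, with log2 fold changes from 1.34 to 2.40. None of these 4 models was called in a fit without 1 of the 4 libraries.

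**Figure D4:**
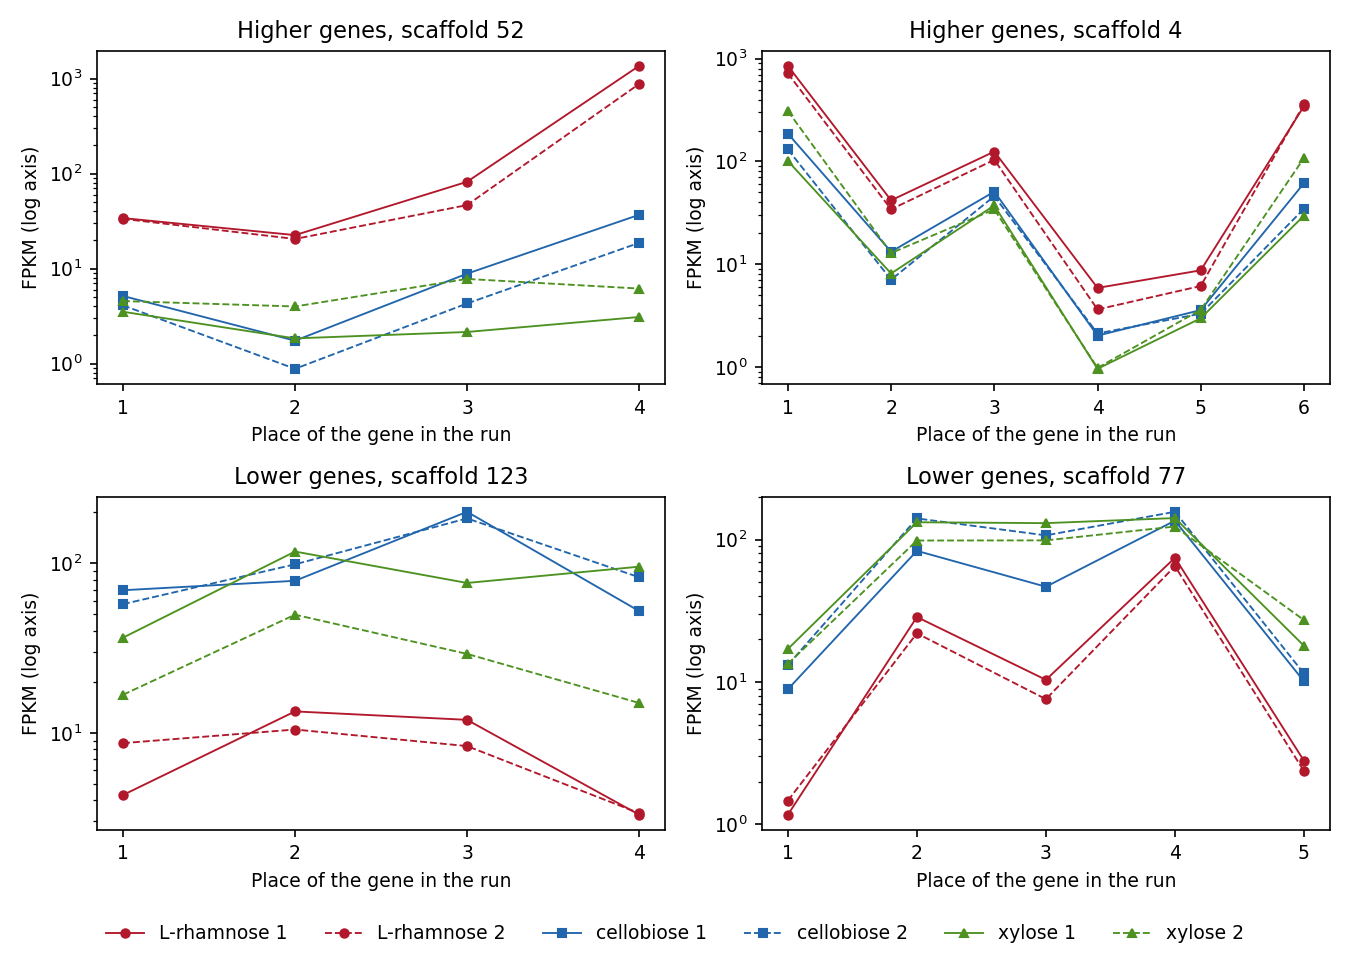
FPKM on a log axis of the consecutive genes in 2 runs of higher genes (scaffolds 52 and 4) and 2 runs of lower genes (scaffolds 123 and 77), by place in the run, with 1 line per library. In every gene of the 4 runs both L-rhamnose libraries lie on one side of both cellobiose libraries, while the xylose libraries 1 and 2 lie far apart on scaffold 123.

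Among runs of lower genes, scaffold 123 held 2 that were close together, 4 models at 26700 to 39153 and 3 at 45729 to 53115. The model of 4 exons and 333 coding bases at 35422 to 36621 stood at 11.9 and 8.36 FPKM on L-rhamnose, against 202 and 185 FPKM on cellobiose (log2 fold change -4.27 ± 0.49, SE, edgeR adjusted p = 0.00416). The model of 11 exons at 36774 to 39153 stood at 3.29 and 3.36 FPKM on L-rhamnose, against 52.4 and 82.9 FPKM on cellobiose (log2 fold change -4.37 ± 0.85, SE, edgeR adjusted p = 0.0164). The model of 4 exons at 49952 to 50834 stood at 10.5 and 10.9 FPKM on L-rhamnose, against 62.4 and 111 FPKM on cellobiose (log2 fold change -3.03 ± 0.67, SE, edgeR adjusted p = 0.0231). The L-rhamnose libraries were close in each of these genes and far below the cellobiose libraries. The xylose replicates differed widely here, at 76.7 and 29.3 FPKM, 95.7 and 15.02 FPKM, and 197 and 50.2 FPKM for the 3 genes. The xylose libraries enter the fit, and their part in these standard errors was not tested. The other 4 models of both runs stood between 1.13 and 57.4 FPKM on L-rhamnose and between 57.5 and 202 FPKM on cellobiose. No member of either run was called without an L-rhamnose library.

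On scaffold 77, all 5 models of a run at 44825 to 53043 lay on the minus strand. The model of 6 exons at 47730 to 48722 stood at 10.4 and 7.58 FPKM on L-rhamnose, against 46.7 and 107 FPKM on cellobiose (log2 fold change -3.12 ± 0.43, SE, edgeR adjusted p = 0.00664). The model of 2 exons at 44825 to 45597 stood at 1.17 and 1.47 FPKM on L-rhamnose, against 8.90 and 13.2 FPKM on cellobiose (log2 fold change -3.06 ± 0.39, SE, edgeR adjusted p = 0.00522). The most abundant member, of 5 exons at 49128 to 51041, changed least, with 74.6 and 65.1 FPKM on L-rhamnose, against 136 and 157 FPKM on cellobiose (log2 fold change -1.09 ± 0.18, SE, edgeR adjusted p = 0.01). The other 2 models stood at 28.6 and 22.0 FPKM, and at 2.80 and 2.37 FPKM, on L-rhamnose, against 83.4 and 141 FPKM, and 10.1 and 11.5 FPKM, on cellobiose. All 5 were called without cellobiose replicate 1, 2 without cellobiose replicate 2, and none without either L-rhamnose library.

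Scaffolds 31 and 196 held 2 runs of lower genes each. On scaffold 31, the model of 8 exons at 144099 to 145465 stood at 231 and 167 FPKM on L-rhamnose, against 444 and 572 FPKM on cellobiose (log2 fold change -1.38 ± 0.24, SE, edgeR adjusted p = 0.0118). Its neighbour but 1, of 7 exons at 148509 to 150179, stood at 18.4 and 15.1 FPKM on L-rhamnose, against 99.7 and 107 FPKM on cellobiose (log2 fold change -2.65 ± 0.63, SE, edgeR adjusted p = 0.0276). The same scaffold held a pair of long models in its other run, with 4338 coding bases at 22427 to 28030 and 6540 coding bases at 32324 to 39294. They stood at 17.2 and 13.9 FPKM, and at 24.9 and 21.7 FPKM, on L-rhamnose, against 38.3 and 71.0 FPKM, and 48.1 and 70.5 FPKM, on cellobiose. On scaffold 196, 2 of the 3 models in each run share reads with similar genes, so their values are uncertain. A run of 4 models at 5875 to 10056 on scaffold 21 also held 2 that share reads, and its other 2 stood at 0.72 to 3.84 FPKM on L-rhamnose and 6.56 to 15.7 FPKM on cellobiose.

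Calls were then counted by the structure of the gene models. Short models were more often called higher than lower on L-rhamnose with all libraries. Of 851 tested models with under 300 coding bases, 12.8% were higher and 4.47% lower, and of 1309 models with over 2400 coding bases, 6.26% were higher and 11.2% lower, against 11.0% each over all genes. The share of short models called higher did not stay above that of all genes. It was 4.6% with DESeq2, against 9.94% of all genes, and 0.213% and 0.315% without L-rhamnose replicates 1 and 2, against 0.86% and 1.12%. Without cellobiose replicate 2 short models were more often lower (0.716%) than higher (0.409%). Without either L-rhamnose replicate long models were more often higher than lower, but so were all tested genes. The share of long models called higher stayed below that of all genes in those fits. The median log2 fold change was 0.354 for the shortest class and -0.132 for the longest. The sign of both medians was the same in all 15 alternative fits, with ranges from 0.202 to 0.47 and from -0.172 to -0.105. Each single L-rhamnose library set against each single cellobiose library gave medians between 0.1 and 0.474 for the shortest class and between -0.106 and -0.078 for the longest.

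In the edgeR fit of all 6 libraries the share called higher ran the other way with exon number. Single-exon models were called in 9.51% of cases as higher and 5.07% as lower, with a median of 0.26. Over all tested genes 11.0% were called in each direction. With limma on log2(FPKM + 1), 12.0% of single-exon models were called higher, against 10.8% of all genes. Without cellobiose replicate 2 single-exon models were more often lower than higher. Models of 4 to 6 exons were higher in 9.11% and lower in 12.7% of cases, with a median of -0.059. Without either L-rhamnose replicate they were more often higher than lower, as were all tested genes. Models with over 10 exons were called higher most often, in 15.9% of cases, and lower in 11.0%, yet their median of 0.004 changed sign in 7 of 15 alternative fits, so the class as a whole did not lie to one side. Exon number and coding length go together, and they were not separated here.

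Calls were also counted by level, where 11.0% of all tested genes were called in each direction. Models with a mean of 1 to 10 FPKM were higher in 10.5% and lower in 3.67% of cases, with a median log2 fold change of 0.32. Of 7489 models with 10 to 100 FPKM, 10.8% were higher and 11.4% lower, with a median of -0.073. Models with 100 to 1000 FPKM were higher in 12.8% and lower in 22.6% of cases, with a median of -0.196. Without either L-rhamnose replicate this class was more often higher than lower, but so were all tested genes. Its share called lower stayed above that of all tested genes in those fits. Its median stayed between -0.22 and -0.171 in the 15 alternative fits. Models above 1000 FPKM were higher and lower in 12.6% each. The level is a mean over the 6 libraries and therefore holds the values that were compared. The number of counts behind a call rises with level, and its part in these shares was not tested. Genes that share reads with a similar gene were called higher in 15.8% and lower in 8.19% of cases, with a median of 0.252, against 10.6%, 11.3% and -0.02 for genes with whole counts. For lower calls this order turned without L-rhamnose replicates 1 and 2 (0.365% and 0.543% of genes that share reads, against 0.288% and 0.388%) and without cellobiose replicate 2 (2.07%, against 1.14%). Models without an annotated UTR were higher in 12.7% and lower in 9.5% of cases, against 10.3% and 11.7% for models with one. Here too the order for lower calls turned without L-rhamnose replicates 1 and 2 (0.327% and 0.526% of models without a UTR, against 0.28% and 0.346%).

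**Figure D5:**
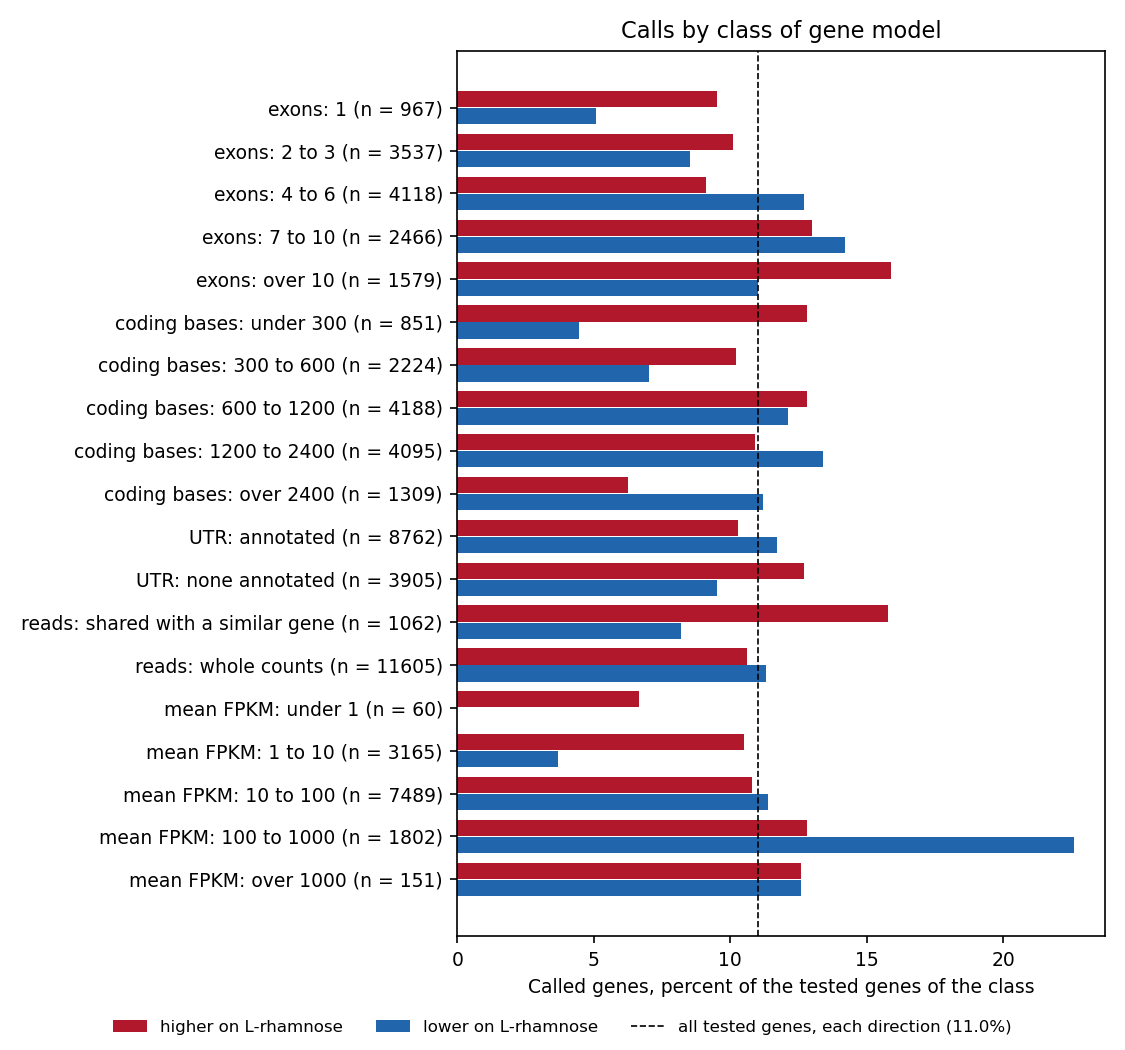
Percent of the tested genes of each structural class that were called higher (upper bar of a pair) or lower (lower bar) on L-rhamnose, with the class size in brackets and a dashed line at the 11.0% of all tested genes called in each direction. Short models, single-exon models and models of 1 to 10 FPKM have longer bars for higher than for lower genes, and models of 100 to 1000 FPKM have the longest bar for lower genes, at 22.6%.

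Hardly any gene was measured on 1 of the 2 sugars alone. A single model had at least 10 counts in both L-rhamnose libraries and 0 in both cellobiose libraries. It has 5 exons and 549 coding bases and lies on scaffold 67 (165117 to 165888, plus strand). It had 10 and 10 counts on L-rhamnose, against 0 and 0 on cellobiose, and 0 and 1 on xylose. Against a floor of 3 counts per library, it was at least 3.4-fold higher on L-rhamnose, which covers counting error only. With any count in both libraries of one sugar and none on the other, there were 49 genes on the L-rhamnose side and 35 on the cellobiose side. No model had at least 10 counts in both cellobiose libraries and 0 in both L-rhamnose libraries. At this depth the difference between the sugars thus lay in the levels of genes that were detected on both.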

How the data were processed

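The authors deposited, for each library, FPKM and an expected count made with RSEM for every gene with reads. Per the submitters' processing notes, the tools were Bowtie2, HISAT and RSEM. Not given in the sources used here are their versions, the genome build and strand use in counting. Models left out of a deposited table were taken as 0. Gene lengths equalled the coding length of the deposited models in all 84363 entries, so UTRs were not part of the lengths. Protein numbers came from the deposited identifier table, which matched all 15295 models. A RefSeq table of strain LYAD-421 SS1 (12497 genes) matched 0 identifiers and was not used. The planned pathway lists need product names and could not be formed.

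Expected counts were rounded and fitted with edgeR 4.0.16 (R 4.3.3, TMM, filterByExpr, quasi-likelihood test) for all 6 libraries, with the contrast L-rhamnose minus cellobiose, Benjamini-Hochberg adjustment and a threshold of 0.05. The biological coefficient of variation was 0.2183 (residual degrees of freedom 3, prior 4.153). Standard errors are log2 fold change over the root of F. Totals ran from 7306517 to 8126006 counts per library. Counts off a whole number by over 1e-06 marked the 1062 tested genes that share reads. Genes named are, per direction, the 10 stable genes with the highest mean FPKM on the higher sugar. Runs described are the 4 longest per direction, ties settled by the median fold change, and further runs on the same scaffolds. Other genes were chosen after their values were seen. DESeq2 1.42.0, limma 3.58.1, other scalings, filters, replicate blocks and leaving out libraries were alternatives. Scripts were tested on simulated data. The members and lists were chosen with earlier results of these data known.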

Additional observations from a re-analysis of the deposited data

How the results depend on the processing

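The 20 named genes were chosen for being called in the fit of the 4 libraries, with DESeq2 and without each of the 4 libraries, so their calls there are no test of stability. Their calls also held with the other scalings, filters, limma, the replicate block and without each xylose library. Counts of calls did not keep their size. Leaving out 1 library at a time gave 149 to 3802 called genes, against 2792 with all libraries, with 111 to 1816 higher and 38 to 2004 lower. The lowest counts came without L-rhamnose replicate 1 (149) and replicate 2 (197), then without cellobiose replicate 2 (322) and replicate 1 (1121). Of the calls, 74.5% and 73.6% were higher without the L-rhamnose replicates, against an even split with all libraries. Genes at an unadjusted p under 0.05 numbered 4857 with all libraries.

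Replicates with the same number did not deviate together (r = -0.199 between L-rhamnose and cellobiose). With 2 libraries per sugar, this correlation cannot tell whether the libraries were paired. With a replicate block edgeR called 1597 genes, 855 higher and 742 lower, and all 20 named genes stayed called. A block with crossed numbers in the fit of the 4 libraries, added after the data were seen, called 5422 genes, 2718 higher and 2704 lower, against 2583 with the labelled numbers as a block and 3705 with no block in the same 4 libraries.

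The 15 runs of higher genes became 28 in the fit of the 4 libraries and 4 with at least 4 models, and 0 to 26 without single libraries. The 13 runs of lower genes became 22 with DESeq2, 25 in the fit of the 4 libraries and 5 with at least 4 models, and 0 to 26 without single libraries. The cause of these differences was not tested. Genes measured on L-rhamnose only numbered 1 to 5 without single libraries, and on cellobiose only 0 to 2. The named genes that passed in the same direction against xylose numbered 13 of 20, and 11 to 13 without single libraries.

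The smallest log2 fold change among the called genes was 0.53 in size. Depth limits the genes of few counts, for which absence on a sugar could not be told from a low level.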
